A study of Arabidopsis thaliana with 30 samples.

Results

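The KRP genes of Arabidopsis thaliana encode the plant relatives of the animal CDK inhibitors of the p27Kip1 kind. The family was taken as the 7 genes KRP1 (AT2G23430), KRP2 (AT3G50630), KRP3 (AT5G48820), KRP4 (AT2G32710), KRP5 (AT3G24810), KRP6 (AT3G19150) and KRP7 (AT1G49620), found by identifier among the 68575 in the count table, and all 7 passed the filter on low counts. RNA sequencing libraries had been made from whole seedlings of Δlinda, a mutant, and of Col-0, its wild type. The samples formed 8 groups: Zeocin Δlinda (n = 4) and mock Δlinda (n = 3), Zeocin Col-0 (n = 3) and mock Col-0 (n = 4), and 4 libraries each of UV-C Δlinda, normal light Δlinda, UV-C Col-0 and normal light Col-0. Every seedling was 14 days old and had grown with 10 h of light per day. Zeocin, a bleomycin-type drug that breaks DNA, was given at 80 µg/ml in liquid medium for 3 h, and mock seedlings were its controls by their titles. The treatment note words this the other way round, attaching mock to the medium that held the drug; the titles were followed. UV-C seedlings received 2 kJ and were harvested 3 h later. The labels give no harvest time for the seedlings in normal light.

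A KRP protein binds a cyclin-dependent kinase, chiefly CDKA;1, together with its D-type cyclin, and holds the complex inactive. Active CDKA;1 with a D-type cyclin phosphorylates the retinoblastoma protein RBR1 and so frees E2F and DP factors to start DNA replication. KRP levels are also set after transcription, since the F-box protein FBL17 and the ubiquitin ligase RKP bring KRP proteins to the proteasome, and transcripts say nothing of that step. In plants the response to broken DNA runs through the transcription factor SOG1, which raises cell cycle inhibitors of the SIAMESE-related (SMR) family.

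Library totals were 13.15 M to 15.48 M estimated counts, except for 8.0 M in replicate 1 of normal light Δlinda. Genes left out because their decimals were unclear took 12.6 to 16% of a library's counts in UV-C Δlinda against 4.97 to 5.94% in normal light Δlinda, 17.1 to 19.5% in UV-C Col-0 against 5.47 to 6.39% in normal light Col-0, 6.4 to 6.99% in Zeocin Δlinda against 4.71 to 5.43% in mock Δlinda, and 6.55 to 6.96% in Zeocin Col-0 against 4.11 to 4.62% in mock Col-0. CPM values below are over the counts that were kept. A refit with the unclear genes kept at their likeliest reading left KRP1, KRP2, KRP3 and KRP4 called after UV-C, in the same directions, in both genotypes. The CPM levels were not recomputed with those genes. For replicate 1 of mock Col-0 the labels disagree on the genotype (Col-0 by title, delta_linda by tag), and the title was followed. SMR7 and the repair gene BRCA1 served as controls of the treatments. SMR7 rose after Zeocin, by log2 7.71 ± 0.43 (SE) in Δlinda and 7.58 ± 0.38 in Col-0, and after UV-C, by 4.77 ± 0.56 and 5.39 ± 0.6. Its UV-C values start from a level near 0. SMR7 averaged 0.215 ± 0.253 CPM in normal light Δlinda and 6.97 ± 3.16 CPM in UV-C Δlinda (SD, n = 4 each). In Col-0 it averaged 0.162 ± 0.0511 CPM in normal light and 7.07 ± 1.87 CPM after UV-C (n = 4 each). BRCA1 rose by 4.87 ± 0.28 and 5.43 ± 0.25 after Zeocin and by 1.07 ± 0.24 and 1.27 ± 0.24 after UV-C. AT3G00800, taken as the LINDA locus from general knowledge, had 135 to 444 counts in Zeocin Δlinda against 506 to 779 in Zeocin Col-0 at its likeliest reading; which bases the mutant lacks is not stated in the labels, so this checks no label. Leaf markers (RBCS1A, LHCB1.3 and GLK2, 3 of 3 tested) summed to 15900 to 61700 CPM per library, and the root markers ESB1 and SHR, 2 of 4 listed, to 10.2 to 25.7 CPM. The labels do not say that replicates came from separate cultures, so p-values measure the spread between these samples. Entries were also read by their closeness to the other libraries of their group. Where the reading was open, that spread and the p-values therefore depend in part on the group labels.

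KRP6 is shown first because it is the KRP gene that rose after Zeocin. It lies at chr3:6616330-6617951 on the minus strand in TAIR10.1 (RefSeq), with a coding length of 591 bases for 196 residues. KRP7 lies at chr1:18365336-18366744 and KRP1 at chr2:9976590-9978090, both on the minus strand. The sequences below run 5′ to 3′ and begin 250 bases before the annotated gene start. In KRP6 and KRP7 the capitals mark CTT and AAG with any 7 bases between them, the type of palindrome that SOG1 binds, and in KRP1 they mark AACGG or its reverse complement, the core of the mitosis-specific activator (MSA) element. The KRP6 sequence (chr3:6617944-6618201) runs 8 bases past the gene start so that it holds the whole match, and those of KRP7 (chr1:18366745-18366994) and KRP1 (chr2:9978091-9978340) end at the start.
KRP6: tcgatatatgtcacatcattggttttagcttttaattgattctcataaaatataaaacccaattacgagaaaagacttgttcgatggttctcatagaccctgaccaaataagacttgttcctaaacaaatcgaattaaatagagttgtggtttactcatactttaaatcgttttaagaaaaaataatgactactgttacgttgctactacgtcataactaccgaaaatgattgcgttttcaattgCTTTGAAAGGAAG
KRP7: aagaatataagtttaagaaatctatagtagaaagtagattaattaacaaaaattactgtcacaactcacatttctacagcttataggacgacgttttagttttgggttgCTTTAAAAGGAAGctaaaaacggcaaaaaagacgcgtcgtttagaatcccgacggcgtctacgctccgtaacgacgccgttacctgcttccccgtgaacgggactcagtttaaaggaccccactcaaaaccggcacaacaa
KRP1: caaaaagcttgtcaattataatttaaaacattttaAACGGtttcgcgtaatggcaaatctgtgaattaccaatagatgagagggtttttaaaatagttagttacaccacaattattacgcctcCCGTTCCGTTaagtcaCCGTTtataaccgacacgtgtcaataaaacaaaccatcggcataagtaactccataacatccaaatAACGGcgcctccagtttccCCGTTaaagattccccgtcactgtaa
The 250 bases before the start were searched first, and there KRP7 alone of the 7 genes held a SOG1-type match, against 9.71% of 27443 protein-coding genes. The first 50 bases after the start were added once that search had found none in KRP6. KRP6 then held 1 match, beginning 5 bases before the start, against 11.8% of genes for the longer window. KRP7, with its match 141 bases before the start, was not called after Zeocin. KRP1 held 6 MSA cores in the 250 bases, KRP7 held 3, KRP2 held 2, KRP3 held 1 and the other 3 genes held none, where 20.6% of genes held at least 1. E2F-type sequences (TTTCCCGC, TTTGGCGC, TTTCGCGC or TTTGCCGC), held by 1.41% of genes, were found in none of the 7. The W-box core (TTGACC or TTGACT), held by 28.4%, was found in KRP3 alone. In the longer window, MSA cores numbered 7 in KRP1, 5 in KRP7, 3 in KRP2 and 1 each in KRP3 and KRP6. KRP4 and KRP5 held none there, where 24.7% of genes held at least 1. Both strands were searched, and a match in a window is no evidence of binding.

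Zeocin raised 1 of the 7 KRP genes, KRP6, to 5.58-fold of mock in Δlinda and to 5.62-fold in Col-0. In Zeocin Δlinda, KRP6 stood at 81.8, 55.9, 38 and 52 CPM (counts per M library counts, TMM-normalised), against 9.4, 10.4 and 10.8 CPM in mock Δlinda. In Zeocin Col-0 it stood at 43.4, 57.9 and 71.4 CPM, against 11.2, 8.96, 11 and 9.71 CPM in mock Col-0. With decimals placed using the groups, every Zeocin library lay above every mock library, and the Zeocin groups of the genotypes overlapped each other. The log2 fold change was 2.48 ± 0.23 in Δlinda (SE; adjusted p = 3.9e-09) and 2.49 ± 0.22 in Col-0 (adjusted p = 6e-10), by the quasi-likelihood test of edgeR, with p-values adjusted by Benjamini-Hochberg across all 20334 genes tested. Without mock Col-0 replicate 1, whose labels conflict, the Col-0 value was 2.54 (edgeR adjusted p = 1e-08).

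The 1 of 7 called (14.3%) stands beside 2.72% of all genes tested in Δlinda and 5.12% in Col-0; 2.30% and 3.91% of all genes were called higher after Zeocin. The Col-0 count of all genes, 1041, was 1438 when Zeocin Col-0 replicate 1 was left out, 632 when replicate 2 was and 670 when replicate 3 was. With each library left out 1 KRP gene was called. The decimals stayed as placed over all libraries with the groups, so these fits do not test how the KRP6 entries were read. The median log2 fold change over the 7 KRP genes was 0.019 in Δlinda and -0.199 in Col-0, against 0.001 and -0.003 over all genes. The other 6 lay between -0.46 ± 0.28 (KRP3) and 0.36 ± 0.3 (KRP7) in Δlinda and between -0.43 ± 0.29 (KRP3) and -0.09 ± 0.27 (KRP5) in Col-0, with edgeR adjusted p of 0.52 or more. KRP3, a little-studied member, was at 3.28, 3.5, 3.45 and 2.3 CPM in Zeocin Δlinda, against 4.54, 4.3 and 4.14 CPM in mock Δlinda, where all Zeocin libraries lay below all mock libraries without passing the test (edgeR adjusted p = 0.56). KRP7, which like KRP6 is a target of FBL17 in the male germline, was at 4.73, 2.39, 3.52 and 2.63 CPM in Zeocin Δlinda, against 3.05, 2.18 and 2.51 CPM in mock Δlinda. In Zeocin Col-0 it was at 2.06, 2.63 and 1.5 CPM, against 3.03, 2.16, 2.25 and 2.29 CPM in mock Col-0. The KRP7 ranges overlapped in both genotypes.

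The count table has lost the decimal mark of estimates that were not whole, so each KRP6 value rests on how its entry was read. All 7 entries of KRP6 after Zeocin were read as whole numbers. For 2 of them, 770 in Zeocin Δlinda replicate 4 and 1190 in Zeocin Col-0 replicate 3, the final 0 leaves no other reading, and these are the libraries at 52 and 71.4 CPM, above every mock library. When the placement was chosen without using the groups, KRP6 counted as unclear and 3 of the other Zeocin entries were read 10 times lower. These were 129.9 and 95.8 in Zeocin Δlinda replicates 1 and 2, in place of 1299 and 958, and 94.9 in Zeocin Col-0 replicate 2, in place of 949. All 3 lie below the lowest mock counts of KRP6, 151 in mock Δlinda and 145 in mock Col-0, so the separation from mock was lost. With those readings the log2 fold change was 1.35 in Δlinda (edgeR adjusted p = 0.45) and 1.98 in Col-0 (adjusted p = 0.081), so the call rests on the placement that uses the groups.

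**Figure D1:**
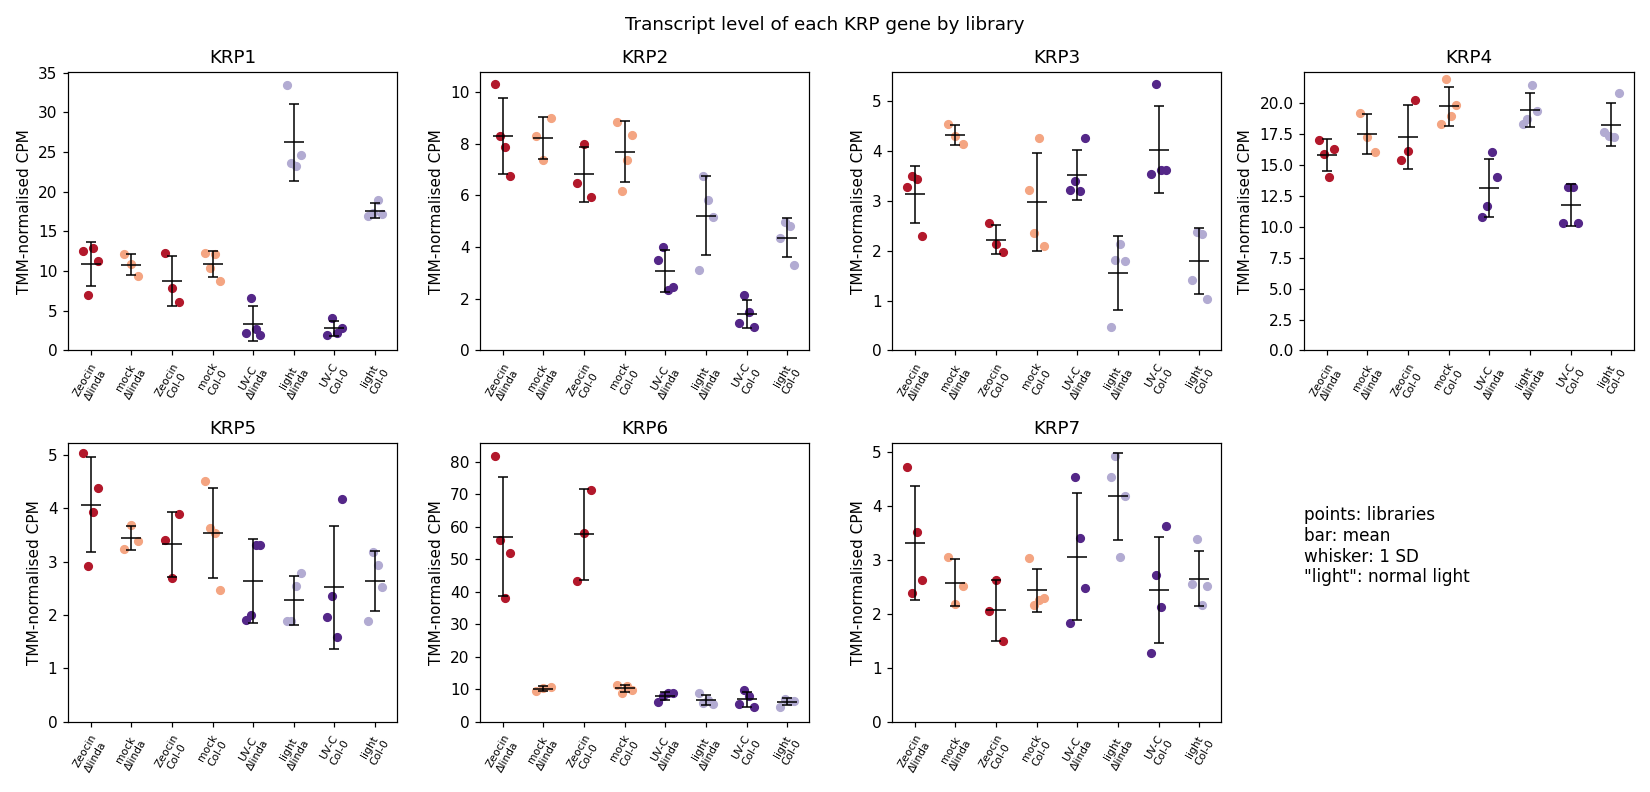
TMM-normalised CPM of each KRP gene (vertical axis, from 0, a scale for each gene) in the 30 libraries, by group (horizontal axis); points are libraries, bars the mean and whiskers 1 SD. With decimals placed using the groups, KRP6 stands at 38 to 81.8 CPM in the 7 Zeocin libraries, above every other library. KRP1 lies lower in UV-C than in normal light.

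After UV-C, KRP1, KRP2 and KRP4 fell and KRP3 rose, in both genotypes. These 4 of 7 (57.1%) stand beside 68.9% of all genes called after UV-C in Δlinda and 69.2% in Col-0, so the share of KRP genes called was no higher than that of genes in general. Of all genes 35.2% and 34.8% were higher and 33.7% and 34.4% lower. The median over the 7 was -0.45 in Δlinda and -0.109 in Col-0, against 0.015 and 0.002 over all genes.

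KRP1, which is known to slow both cell division and growth when overproduced, had the largest fold change of the 7. It was at 2.17, 6.62, 2.72 and 1.96 CPM in UV-C Δlinda, against 33.5, 23.6, 23.3 and 24.7 CPM in normal light Δlinda. In UV-C Col-0 it was at 1.97, 4.13, 2.22 and 2.82 CPM, against 17, 17.3, 19 and 17.2 CPM in normal light Col-0. UV-C and normal light did not overlap in either genotype. The log2 fold changes were -2.95 ± 0.28 in Δlinda (edgeR adjusted p = 2.1e-10) and -2.66 ± 0.29 in Col-0 (2.9e-09), a 7.72-fold and a 6.3-fold lower level. With each of the 8 libraries left out in turn, the value lay between -3.51 and -2.76 in Δlinda and between -2.91 and -2.49 in Col-0.

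KRP2, an inhibitor of CDKA;1 known from lateral root initiation, was at 3.48, 4.01, 2.34 and 2.47 CPM in UV-C Δlinda, against 3.13, 6.73, 5.82 and 5.16 CPM in normal light Δlinda. In UV-C Col-0 it was at 1.08, 2.16, 1.48 and 0.908 CPM, against 4.35, 4.97, 4.83 and 3.3 CPM in normal light Col-0. The groups overlapped in Δlinda and lay apart in Col-0. Its log2 fold change was -0.78 ± 0.23 in Δlinda (edgeR adjusted p = 0.0041) and -1.62 ± 0.26 in Col-0 (2.7e-06).

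KRP3 was the member that rose. It was at 3.22, 3.4, 3.21 and 4.26 CPM in UV-C Δlinda, against 0.469, 1.81, 2.14 and 1.8 CPM in normal light Δlinda. In UV-C Col-0 it was at 3.54, 5.35, 3.62 and 3.63 CPM, against 1.42, 2.38, 2.33 and 1.04 CPM in normal light Col-0. All UV-C libraries lay above all normal light libraries, with 1.11 ± 0.3 on the log2 scale in Δlinda (edgeR adjusted p = 0.0016) and 1.17 ± 0.29 in Col-0 (0.00071). The counts behind it were few, 3 to 73 per library over the series.

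KRP4, which in the shoot meristem is passed to daughter cells with the chromatin and tunes cell size, averaged 13.1 ± 2.33 CPM in UV-C Δlinda and 19.4 ± 1.4 CPM in normal light Δlinda (SD, n = 4 each). In Col-0 it averaged 11.7 ± 1.68 CPM after UV-C and 18.2 ± 1.72 CPM in normal light (n = 4 each). It fell by 0.57 ± 0.13 in Δlinda (edgeR adjusted p = 0.00025) and by 0.63 ± 0.13 in Col-0 (8.2e-05) on the log2 scale, without overlap of the groups. KRP4 overlaps AT2G32720, a protein-coding gene on the other strand, by 926 bases, and no strand setting is given, so reads of both cannot be told apart there. Of the 30 KRP4 entries 16 were not whole, against 4 for KRP6, 3 for KRP7 and 0 for the other 4 genes.

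KRP5, KRP6 and KRP7 did not pass the test after UV-C (edgeR adjusted p of 0.17 or more). KRP5, known for its part in endoreplicating cells, had log2 fold changes of 0.19 ± 0.29 in Δlinda and -0.06 ± 0.28 in Col-0. KRP6 was at 6.09, 7.92, 8.76 and 8.86 CPM in UV-C Δlinda, against 8.91, 5.75, 6.54 and 5.49 CPM in normal light Δlinda. In UV-C Col-0 it was at 5.51, 9.76, 7.79 and 4.54 CPM, against 4.54, 7.05, 6.47 and 6.26 CPM in normal light Col-0, and the groups overlapped in both genotypes (0.27 ± 0.23 and 0.18 ± 0.24). KRP7 had -0.45 ± 0.29 in Δlinda and -0.11 ± 0.3 in Col-0. Without UV-C Δlinda replicate 2 the KRP7 value in Δlinda was -0.71 (edgeR adjusted p = 0.043).

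**Figure D2:**
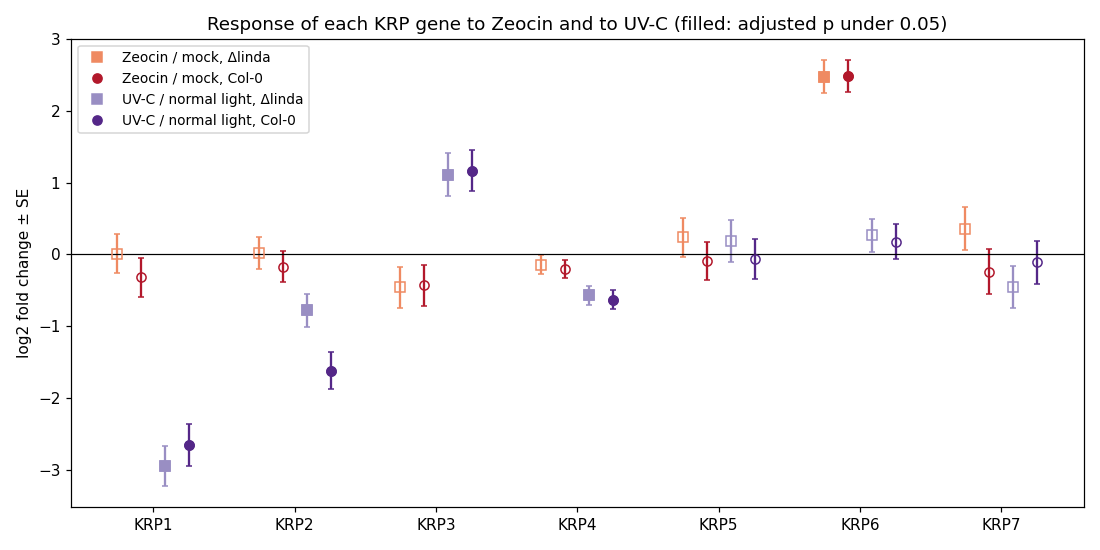
Log2 fold change with its SE (vertical axis) of each KRP gene (horizontal axis) for Zeocin over mock and UV-C over normal light, in Δlinda (squares) and Col-0 (circles); filled symbols have an edgeR adjusted p under 0.05. KRP6 is filled for Zeocin at 2.48 and 2.49, and KRP1, KRP2, KRP3 and KRP4 are filled for UV-C.

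The responses to Zeocin and UV-C were set against each other as the Zeocin log2 fold change minus the UV-C log2 fold change. This difference passed the test for 4 of 7 genes in Δlinda (57.1%, beside 54.7% of all genes) and for 5 of 7 in Col-0 (71.4%, beside 56.0%). For KRP6 it was 2.2 ± 0.32 in Δlinda (edgeR adjusted p = 1.3e-06) and 2.31 ± 0.32 in Col-0 (4.7e-07). With decimals placed without the groups, the KRP6 difference was 1.06 in Δlinda (edgeR adjusted p = 0.32) and 1.76 in Col-0 (adjusted p = 0.082). For KRP1 it was 2.96 ± 0.39 and 2.34 ± 0.4, for KRP2 0.8 ± 0.32 and 1.45 ± 0.35, and for KRP3 -1.57 ± 0.41 and -1.6 ± 0.41. KRP4 passed in Col-0, at 0.43 ± 0.19 (edgeR adjusted p = 0.048), and not in Δlinda, at 0.43 ± 0.19 (adjusted p = 0.051). The call of KRP4 in Col-0 was lost in 16 of 22 alternatives, with adjusted p up to 0.19 (without Zeocin Col-0 replicate 3), and that of KRP2 in Δlinda (edgeR adjusted p = 0.036) in 9 of 22, with adjusted p up to 0.099 (without normal light Δlinda replicate 2). Each treatment had its own controls, and the experiments differed in medium and handling as well as in the agent.

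Between those controls, mock and normal light, 4 of 7 KRP genes differed in each genotype (57.1%, beside 46.1% of all genes in Δlinda and 54.5% in Col-0). KRP1 was lower in mock than in normal light, with -1.27 ± 0.27 in Δlinda (edgeR adjusted p = 0.00031) and -0.69 ± 0.25 in Col-0 (0.02). KRP2 was higher in mock (0.63 ± 0.23 and 0.82 ± 0.22), as were KRP3 (1.41 ± 0.31 and 0.74 ± 0.29) and KRP6 (0.64 ± 0.24 and 0.75 ± 0.22). KRP6 averaged 10.2 ± 0.722 CPM in mock Δlinda (n = 3) and 6.67 ± 1.56 CPM in normal light Δlinda (SD, n = 4). In Col-0 it averaged 10.2 ± 1.09 CPM in mock and 6.08 ± 1.08 CPM in normal light (n = 4 each). Several of these calls turned on 1 library: without mock Δlinda replicate 3 those of KRP2 and KRP6 in Δlinda were lost (edgeR adjusted p = 0.09 and 0.081), without mock Col-0 replicate 3 that of KRP3 in Col-0 (0.15), and without mock Col-0 replicate 4 that of KRP1 in Col-0 (0.065). Which genes differed also depended on the scaling. Without TMM, KRP1 in Col-0 averaged 12.8 CPM in mock and 14.4 CPM in normal light, with overlap. KRP4 and KRP5, not called here, were then higher in mock without overlap in both genotypes. KRP4 averaged 20.5 CPM in mock and 16.5 CPM in normal light in Δlinda, and 23.1 and 14.9 CPM in Col-0. For KRP5 these means were 4.03 and 1.94 CPM in Δlinda and 4.15 and 2.15 CPM in Col-0. KRP1 in Δlinda stayed lower in mock without TMM (12.7 and 22.4 CPM), and KRP2, KRP3 and KRP6 stayed higher in mock in both genotypes. Medium and experiment differ together here and cannot be told apart.

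None of the 7 KRP genes passed the test between Δlinda and Col-0 in any condition, nor in either treatment by genotype interaction, in edgeR or in DESeq2. With all libraries, edgeR called few genes of any kind: 0.0148% in mock, 0.197% after Zeocin, 0.182% in normal light, 0.0197% after UV-C, and 0.0295% and 0.0246% in the Zeocin and UV-C interactions. Some of these counts turned on single libraries. The 40 genes after Zeocin became 757 when Zeocin Col-0 replicate 1 was left out and 3 when replicate 3 was, and the 37 in normal light became 104 without normal light Δlinda replicate 1 and 2 without replicate 4. The count of KRP genes was 0 with each library left out. At an unadjusted p under 0.05, edgeR listed 0 KRP genes in mock, 1 after Zeocin (KRP7), 2 in normal light (KRP1 and KRP7), 1 after UV-C (KRP2), 0 in the Zeocin interaction and 1 in the UV-C interaction (KRP2). The KRP6 response to Zeocin in Δlinda minus that in Col-0 was -0.01 ± 0.31 on the log2 scale. That value depends on the reading of the KRP6 entries that uses the groups. With decimals placed without the groups, the Zeocin responses of KRP6 were 1.35 in Δlinda and 1.98 in Col-0. For KRP2 after UV-C, the 2.34 to 4.01 CPM of Δlinda lay above the 0.908 to 2.16 CPM of Col-0 without overlap, a log2 difference of 1.12 ± 0.27 (edgeR unadjusted p = 0.00026, adjusted p = 0.34). The UV-C interaction of KRP2 was 0.84 ± 0.35 (edgeR adjusted p = 0.62). KRP1 in normal light was at 23.3 to 33.5 CPM in Δlinda and 17 to 19 CPM in Col-0, also without overlap (0.57 ± 0.25, edgeR adjusted p = 0.49), and its highest value came from the library with 8.0 M counts. These cases of KRP2 and KRP1 were picked from all KRP genes and conditions for their lack of overlap. The share of all genes that separated likewise was not counted, so it does not set them apart.

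The KRP6 share of the family was set beside that of the other members. Levels were divided by coding length to compare genes, giving CPM per kb. KRP6 held 58 ± 6.87% of the summed KRP level in Zeocin Δlinda (SD, n = 4) and 20.3 ± 2.16% in mock Δlinda (n = 3). In Col-0 it held 62 ± 7.32% after Zeocin (n = 3) and 20.2 ± 1.08% in mock (n = 4). The summed level per kb was 164 ± 37 in Zeocin Δlinda against 85.4 ± 3.27 in mock Δlinda, and 156 ± 20.2 in Zeocin Col-0 against 85.5 ± 6.55 in mock Col-0. These values rest on the same reading of the KRP6 entries: with decimals placed without the groups, the KRP6 share was 33.8 ± 22.6% in Zeocin Δlinda and 20.3 ± 2.16% in mock Δlinda, and 45.8 ± 27.9% in Zeocin Col-0 and 20.2 ± 1.08% in mock Col-0.

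The summed level per kb was 53.8 ± 7.71 in UV-C Δlinda, against 101 ± 6.77 in normal light Δlinda, and 46.3 ± 8.94 in UV-C Col-0, against 80.3 ± 4.71 in normal light Col-0 (SD, n = 4 each). KRP1 held 10.6 ± 5.73% of it in UV-C Δlinda and 45.1 ± 5.1% in normal light Δlinda, and 10.3 ± 1.75% in UV-C Col-0 and 38.2 ± 2% in normal light Col-0. KRP1 thus had the highest mean share in normal light, and KRP4 after UV-C, with 28.2 ± 4.17% in Δlinda and 29.5 ± 3.64% in Col-0. With transcript length in place of coding length, KRP6 led after UV-C instead, at 24.2% in Δlinda and 24.5% in Col-0, against 21.4% and 22.2% for KRP4, so that order depends on the length used. The mean shares of KRP3, KRP5 and KRP7 were at or below 12.1% by coding length in all 8 groups.

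**Figure D3:**
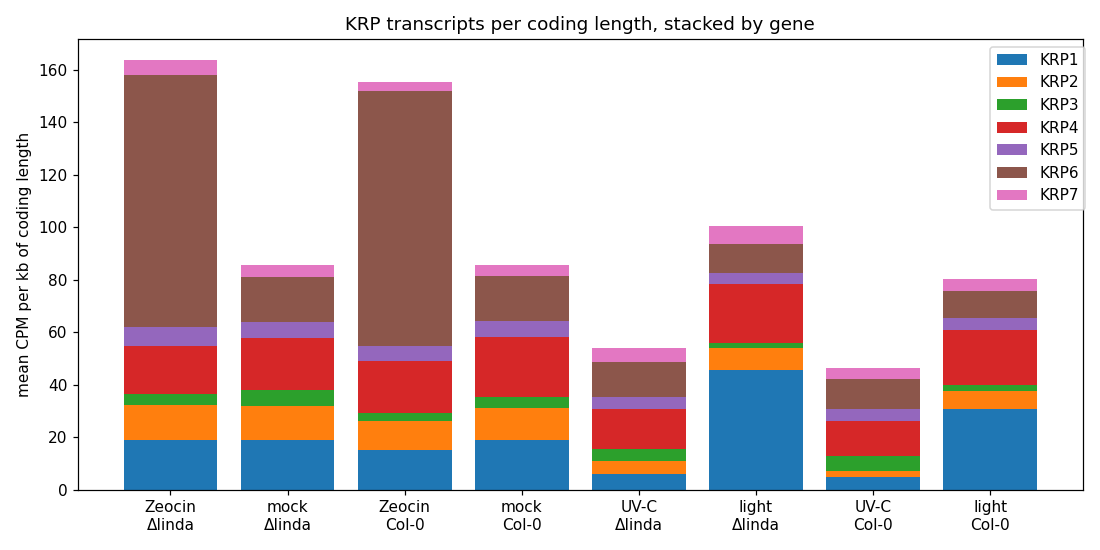
Mean CPM per kb of coding length (vertical axis, from 0) of the 7 KRP genes, stacked, in each group (horizontal axis). KRP6 is the largest segment of both Zeocin bars, and the KRP1 segment is smaller in the UV-C bars than in the normal light bars.

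Across the 8 groups, KRP6 and KRP1 spanned most, with a highest group mean 9.47 and 9.42 times the lowest. The KRP6 span, and the distance of its Zeocin groups from the rest, depend on the reading of its entries that uses the groups. KRP2 spanned 5.9, KRP3 2.78, KRP7 2.02, KRP5 1.79 and KRP4 1.68 times. For KRP6 both Zeocin groups led without a difference beyond their spread, both mock groups came next at 10.2 CPM, and the 4 groups of the UV-C experiment followed, from 7.91 ± 1.28 (UV-C Δlinda) to 6.08 ± 1.08 CPM (normal light Col-0), each within the spread of its neighbour. For KRP1 normal light Δlinda (26.2 ± 4.84 CPM) and normal light Col-0 (17.6 ± 0.912 CPM) led, the 4 Zeocin and mock groups lay within their spread at 8.75 to 10.9 CPM, and both UV-C groups came last. For KRP3, KRP4, KRP5 and KRP7 every group overlapped its neighbour in the order. Group means were 1.56 to 4.33 CPM for KRP3, 11.7 to 19.7 for KRP4, 2.28 to 4.07 for KRP5 and 2.06 to 4.18 for KRP7. Groups farther apart in the order could still separate, as UV-C and normal light did for KRP3 and KRP4.

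Over the 30 libraries, which share groups and scaling, Pearson's r of log2 CPM between KRP genes was highest for KRP1 and KRP4 (0.74) and lowest for KRP1 and KRP3 (-0.59), and KRP6 with KRP7 gave -0.08. The genes whose level followed KRP6 most closely were AT1G78150 (r = 0.978), AT2G45460 (0.973) and GR1 (0.97), the last a gene named for its induction by gamma radiation. After Zeocin they rose, by 1.63 ± 0.12, 4.03 ± 0.21 and 4.14 ± 0.34 on the log2 scale in Δlinda and by 1.72 ± 0.11, 4.06 ± 0.19 and 4.41 ± 0.31 in Col-0. KRP6 varied mostly by its Zeocin libraries, so this rise follows from how the genes were picked and is no separate result. Their r values also depend on the reading of the KRP6 entries that uses the groups. GR1 averaged 64.6 ± 22.9 CPM in Zeocin Δlinda (n = 4) and 3.66 ± 0.869 CPM in mock Δlinda (n = 3). Closest to KRP1 were AT1G55260 (0.963), TBL25 (0.962) and RTFL16 (0.962), and to KRP2 the expansin-like gene EXLA2 (0.933), TRM26 (0.932) and ARAC5 (0.923). KRP3 was closest to AT2G33410 (0.874), KRP4 to AT4G07455 (0.893), KRP5 to AT2G22600 (0.768) and KRP7 to TOM22-V (0.704).

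Of CDKA;1 and the D-type cyclins, the complexes that KRPs inhibit, 0 of 10 tested genes passed the edgeR test after Zeocin in either genotype, with 1 in Δlinda and 2 in Col-0 at an unadjusted p under 0.05. Of all genes, 2.72% and 5.12% were called, so a count of 0 among so few genes does not set them apart. CDKA;1 averaged 34.7 ± 0.976 CPM in Zeocin Δlinda (n = 4) and 34.9 ± 1.55 CPM in mock Δlinda (n = 3). In Col-0 it averaged 36.8 ± 2.31 CPM after Zeocin (n = 3) and 33.2 ± 2.37 CPM in mock (n = 4). Among genes that set CDK activity, 2 of 8 rose in each genotype, beside 2.30% of all genes in Δlinda and 3.91% in Col-0. They were WEE1, a kinase that restrains CDKs after DNA damage (1.5 ± 0.29 in Δlinda and 2.04 ± 0.28 in Col-0), and CDKD;2, a CDK-activating kinase (0.96 ± 0.15 and 1.34 ± 0.14). Of RBR1, E2F and DP genes, E2FB rose in Col-0 (0.73 ± 0.18, edgeR adjusted p = 0.0092), 1 of 6, while 0 of 6 passed in Δlinda, with 0 at an unadjusted p under 0.05. Of 7 genes of KRP turnover 0 passed the edgeR test in either genotype, with 1 in Δlinda and 1 in Col-0 at an unadjusted p under 0.05.

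In the SIAMESE family, the other CDK inhibitors of plants, 2 of 6 tested genes rose after Zeocin in Δlinda, SMR7 and SMR4 (3.93 ± 0.48), beside 2.30% of all genes. In Col-0 3 of 6 rose, SMR6 (1.47 ± 0.33) with SMR7 and SMR4 (4.67 ± 0.47), beside 3.91% of all genes. SMR6 had 0.96 ± 0.34 in Δlinda (edgeR unadjusted p = 0.0078, adjusted p = 0.16). SMR7 averaged 228 ± 82.7 CPM in Zeocin Δlinda against 1.08 ± 0.279 CPM in mock Δlinda, and 227 ± 42.2 CPM in Zeocin Col-0 against 1.17 ± 0.628 CPM in mock Col-0. SMR1 and SMR5 had unclear decimals and were not tested.

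Most genes changed after UV-C, and the counts for these lists stand beside 35.2% of all genes called higher and 33.7% lower in Δlinda, and 34.8% higher and 34.4% lower in Col-0. Of 10 CDK partners tested, 4 rose and 5 fell in Δlinda and 2 rose and 6 fell in Col-0, beside the 68.9% and 69.2% of all genes called in either direction. CYCD1;1 (-2.07 ± 0.19 in Δlinda and -2.39 ± 0.19 in Col-0), CYCD3;2 (-1.44 ± 0.14 and -1.21 ± 0.14) and CYCD3;1 (-0.92 ± 0.15 and -0.99 ± 0.15) fell, while CYCD2;1 (0.81 ± 0.11 and 1.03 ± 0.11) and CYCD5;1 (0.82 ± 0.15 and 0.98 ± 0.15) rose. CYCD6;1 also fell in both (-0.97 ± 0.24 and -0.87 ± 0.25). CYCD4;2 rose in Δlinda (1.1 ± 0.34), as did CDKA;1 (0.25 ± 0.09), and their values in Col-0 were 0.51 ± 0.33 and 0.06 ± 0.09. CYCD4;1 fell in Col-0 (-0.97 ± 0.25), with -0.49 ± 0.24 in Δlinda. Of KRP turnover genes 5 of 7 rose in each genotype, beside 35.2% and 34.8% of all genes: FBL17 (0.81 ± 0.13 and 1.15 ± 0.13), RKP (1.24 ± 0.15 and 1.43 ± 0.15), CUL1 (0.55 ± 0.08 and 0.62 ± 0.08), ASK1 (0.62 ± 0.11 and 0.39 ± 0.11) and RBX1 (0.54 ± 0.11 and 0.4 ± 0.11). The F-box gene SKP2A fell (-1.03 ± 0.16 and -0.8 ± 0.15), and SKP2B fell in Col-0 (-0.47 ± 0.16). FBL17 averaged 46.5 ± 7.99 CPM in UV-C Δlinda against 26.4 ± 3.65 CPM in normal light Δlinda (n = 4 each).

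Of RBR1, E2F and DP genes, 2 of 6 rose after UV-C in Δlinda and 4 of 6 in Col-0, beside 35.2% and 34.8% of all genes, with E2FC at 0.93 ± 0.17 and 1.05 ± 0.17. In the SIAMESE family SMR7 and SMR6 (1.76 ± 0.33 in Δlinda and 2.1 ± 0.34 in Col-0) rose and SMR2 (-1.7 ± 0.26 and -1.21 ± 0.26) and SIM (-1.1 ± 0.3 and -0.77 ± 0.3) fell, 2 of 6 each way, about the share of all genes. Of genes for CDK activation and CKS subunits, 3 of 8 rose in each genotype, with CDKD;1 at 0.54 ± 0.24 and 1.1 ± 0.25. In that list 2 fell in Δlinda and 3 in Col-0, with CKS1 at -0.82 ± 0.11 and -0.88 ± 0.11. These counts too were near the shares of all genes.

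**Figure D4:**
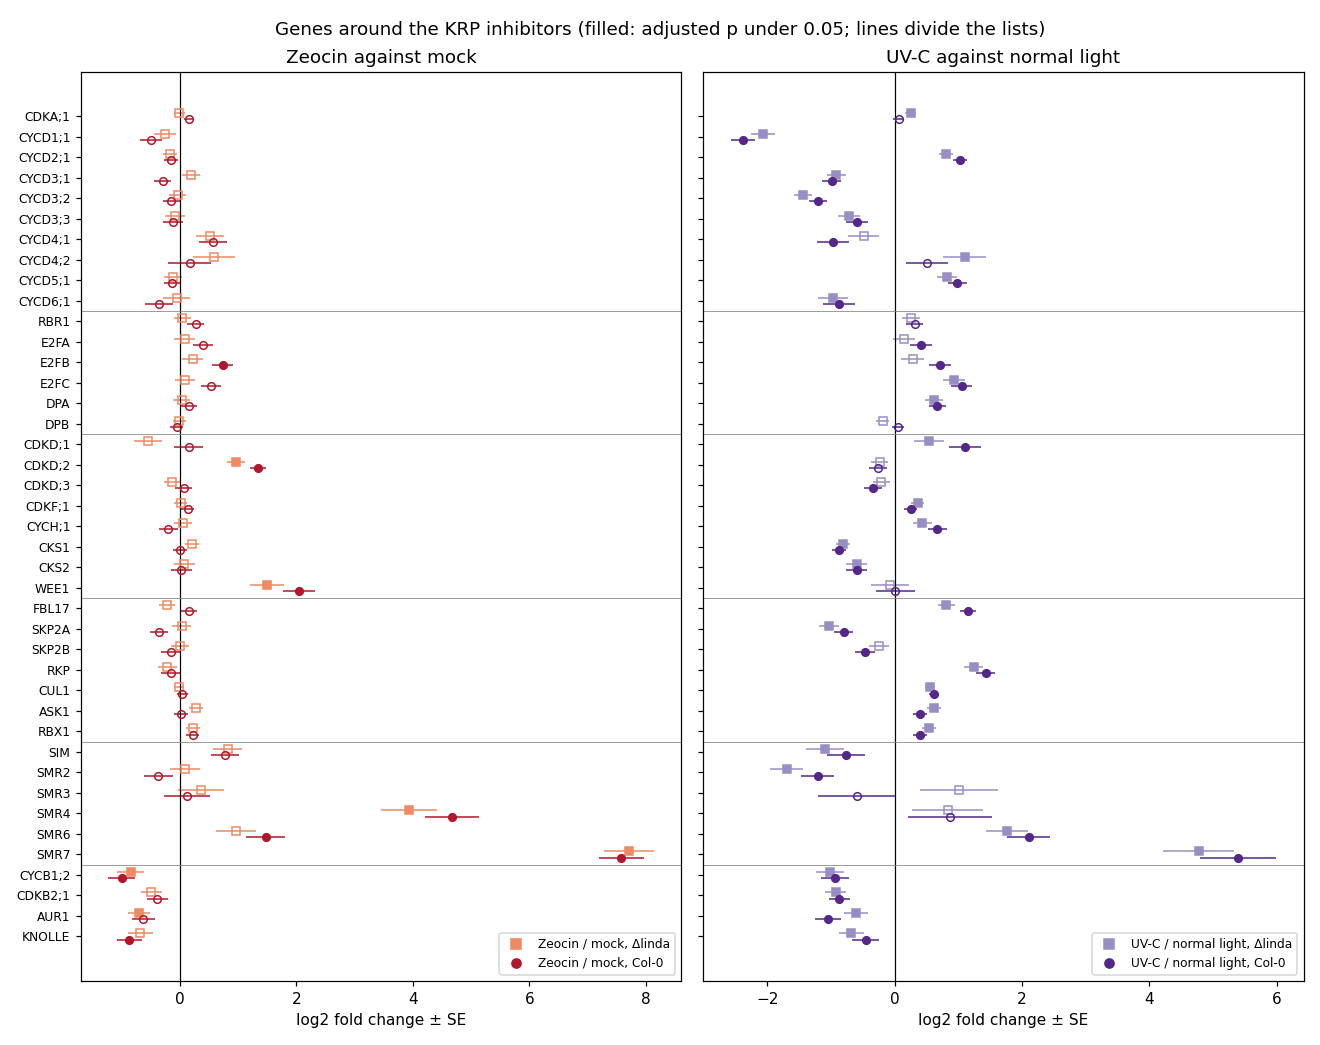
Log2 fold change with its SE (horizontal axis) of the tested genes around the KRP inhibitors, a row per gene, after Zeocin (left) and UV-C (right) in Δlinda (squares) and Col-0 (circles); filled symbols have an edgeR adjusted p under 0.05 and lines divide the lists. SMR7 lies farthest right in both panels, and CYCD1;1 farthest left after UV-C.

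Markers of dividing cells moved with both treatments. After Zeocin 2 of 4 fell in each genotype, CYCB1;2 (-0.85 ± 0.23 in Δlinda and -1 ± 0.23 in Col-0) with AUR1 in Δlinda (-0.7 ± 0.19) and KNOLLE in Col-0 (-0.87 ± 0.22), beside 2.72% and 5.12% of all genes called in either direction. The 4 markers summed to 47.5 to 57.3 CPM in Zeocin Δlinda against 78.9 to 87.9 CPM in mock Δlinda, and to 37.4 to 54.9 CPM in Zeocin Col-0 against 50.8 to 91.7 CPM in mock Col-0. After UV-C all 4 fell in both genotypes, beside 33.7% and 34.4% of all genes, with sums of 43.2 to 55.9 CPM in UV-C Δlinda against 70.3 to 104 CPM in normal light Δlinda and 36.9 to 45.2 CPM in UV-C Col-0 against 59 to 81.8 CPM in normal light Col-0. The stomatal lineage genes TMM and SPCH, 2 of 2, fell after UV-C, with sums of 6.88 to 8.77 CPM in UV-C Δlinda against 28.9 to 34.6 CPM in normal light Δlinda, and 6.69 to 8.07 CPM in UV-C Col-0 against 25.6 to 31.9 CPM in normal light Col-0. All 3 leaf markers fell after UV-C as well (GLK2 by 2.58 ± 0.13 in Δlinda and 2.6 ± 0.13 in Col-0), and so did 1 of the 2 root markers in Δlinda and both in Col-0. In whole seedlings, fewer cells of a type and less RNA per cell cannot be told apart, and the part of these markers in the KRP changes was not tested.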

How the data were processed

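Per the submitters' processing notes, the authors used Trimmomatic 0.38.0, FastQC 0.72 and Salmon 0.14.1.2; the transcript set and build are not given in the sources used here. Values are the deposited estimated counts of each gene without normalisation, in which estimates that were not whole lack their decimal mark, as the values show. The mark was put back per gene by the likeliest placement over all libraries, with replicates sharing a level; of 723692 entries above 0, 117034 (16.17%) received decimals, 23 of them among the 210 KRP entries. The settings of this step were adjusted after seeing the restored totals and that KRP4 was unclear under a stricter limit; the limit used was odds of 20. It left out 3680 genes as unclear and kept 64895. Of 20769 genes with a mean of at least 10 counts, 8.42% were left out.

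After rounding, the test was that of edgeR 4.0.16 (R 4.3.3), with 30 libraries in 1 fit, 1 coefficient per group, filterByExpr (10 and 15), TMM, the robust quasi-likelihood F test, and Benjamini-Hochberg adjustment within each of 14 comparisons at 0.05. SE is the absolute log2 fold change over the square root of F. The KRP genes and the lists around them were chosen with earlier results of these data known. Named genes were drawn from all KRP genes, for each of the 4 treatment comparisons up to 4 called genes per list and direction by size (so a list can have more over both genotypes), the 3 genes with the highest r to each KRP gene, and SMR7 and BRCA1. Alternatives included DESeq2 1.42.0, other scalings, no filter, a replicate block, other readings of the decimals and leaving out each library. Decimals were not placed anew when a library was left out. Counts give the depth; no intervals are printed. Sequences and gene models come from RefSeq TAIR10.1, whose build may differ from the authors'.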

Additional observations from a re-analysis of the deposited data

Results flagged for a closer look

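In 6 of 42 sets of 4 libraries tested for a value apart from the rest, where chance gives about 1 in 20, a KRP level stood apart, each time as the highest. KRP1 was at 33.5 CPM in normal light Δlinda replicate 1, the library with the fewest counts, with the other 3 at 23.3 to 24.7. KRP1 was at 19 CPM in normal light Col-0 replicate 3, with the others at 17 to 17.3, and at 6.62 CPM in UV-C Δlinda replicate 2, with the others at 1.96 to 2.72. KRP3 was at 5.35 CPM in UV-C Col-0 replicate 2, with the others at 3.54 to 3.63. KRP4 was at 20.8 CPM in normal light Col-0 replicate 4, with the others at 17.2 to 17.6. KRP7 was at 3.03 CPM in mock Col-0 replicate 1, the library with conflicting genotype labels, with the others at 2.16 to 2.29.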

How the results depend on the processing

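Of 243 recounts of the KRP genes called per comparison under the alternatives, 234 stayed within 1.5 times the value given. With decimals placed without the groups, KRP6 was left out and the count was 0 for Zeocin in both genotypes and 3 for Zeocin minus UV-C in Col-0. With its unclear entries kept at their likeliest reading, an alternative chosen after seeing the data, the counts were 0 and 0 for Zeocin, 3 (Col-0) and 2 (Δlinda) for Zeocin minus UV-C, and 2 for mock against normal light in Col-0. Leaving out 1 library gave 2 to 5 for mock against normal light in Δlinda, with 2 without mock Δlinda replicate 3. Values that changed sign were all uncalled folds near 0: KRP1 after Zeocin in Δlinda (0 without a filter, -0.08 to 0.18 with 1 library left out), KRP2 there (-0.10 to 0.11), KRP5 after Zeocin in Col-0 (-0.23 to 0.05), and after UV-C in Col-0 KRP5 (-0.42 to 0.11), KRP6 (-0.03 to 0.34) and KRP7 (-0.36 to 0.13). In mock against normal light, calls were lost in some alternatives for KRP6 (6 of 13) and KRP2 (3 of 14) in Δlinda and for KRP3 (4 of 15), KRP1 (3 of 15) and KRP6 (1 of 14) in Col-0. Replicate numbers did not pair the samples (correlations of deviations -0.379 to 0.186); with the replicate block KRP6 after Zeocin was 2.53 in Δlinda and 2.45 in Col-0, and the calls of KRP4 for Zeocin minus UV-C in Col-0 and KRP6 for mock against normal light in Δlinda were lost. Leaving out 2 abundant RNA genes gave no value, since both were already unclear. Without TMM, 21 of 56 group levels of KRP genes moved by more than 1 SD, and with transcript length 24 of 56 shares did. Over all genes, DESeq2 called 226 between Δlinda and Col-0 after Zeocin against 40 in edgeR, 147 against 37 in normal light, 10 against 4 after UV-C, 9 against 3 in mock and 26 against 5 in the UV-C interaction. With decimals placed without the groups, edgeR called 364 genes after Zeocin in Δlinda against 554, and 612 in Col-0 against 1041; the causes were not tested. With those placements and unclear genes kept, the mean KRP6 share was 33.8% in Zeocin Δlinda and 45.8% in Zeocin Col-0. Leaving out 1 library gave 3 to 757 genes between Δlinda and Col-0 after Zeocin, 2 to 104 in normal light, 4 to 7 after UV-C (7 without UV-C Δlinda replicate 4) and 3 to 15 in the UV-C interaction (15 without normal light Col-0 replicate 2). The low counts of KRP3, KRP5 and KRP7 limit their precision.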
